A study of Mus musculus with 24 samples.

Results

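Igf1, Igf2r and the IGF binding protein genes Igfbp1 to Igfbp6 were described in the lungs of transgenic and wild-type mice of 6 inbred strains. These 8 genes, of 13499 measured, were listed by gene symbol and selected on their TG and WT values, among them a higher Igf1 and a lower Igfbp3 in TG lungs. All 8 were measured, each by 1 probe set. The differences between TG and WT mice are therefore given for them as a description, with a standard error and no p-value. Tests are confined to other comparisons, which draw on the same values. The members were chosen with earlier results of these data known, so counts of members that pass are not independent of the selection.

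Right lung lobes of 24 mice gave the RNA, each lobe on its own array, and values are log2 intensities. A doxycycline-inducible transgene for TGF-β1, a profibrotic cytokine, was carried by the 17 TG mice and not by the 7 WT mice. All of them, WT mice included, had received doxycycline in the drinking water for 2 weeks. There were 3 TG mice beside 1 WT mouse in A/J, AKR/J, BALB/cJ, C3H and 129 (labelled S129), and 2 TG beside 2 WT mice in C57BL/6J. The series design calls A/J, AKR/J and C57BL/6J prone to fibrosis and 129, BALB/cJ and C3H resistant. The samples' own fibrosis code calls the resistant set prone and the prone set resistant. The design was followed, and every prone minus resistant sign turns under the code. No source used here gives the promoter behind the transgene or the age of the mice, and the transgene's own level was not analysed here.

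IGF1 is a secreted growth factor that acts through the IGF1 receptor and the PI3K and MAPK cascades, and in the lung it is made mainly by mesenchymal cells and macrophages. The IGF binding proteins hold IGF outside cells: they carry it, protect it from clearance and release it when proteases cut them. IGFBP3 and IGFBP5 join IGF and the acid-labile subunit in a ternary complex, IGFBP6 prefers IGF2 over IGF1, and the receptor encoded by Igf2r takes up IGF2 for degradation in lysosomes and also binds latent TGF-β. The genes Igf2, Igf1r, Insr and Igfbp7 were not analysed here.

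The promoter stretches of the 3 members furthest apart between TG and WT lungs are shown. These genes differed in the same direction in all 6 strains, as did Igf2r and Igfbp4, whose differences were smaller and whose stretches are not shown. Each runs over the 250 bases before the annotated start, 5′ to 3′ on the gene's own strand, taken from RefSeq on the mouse build GRCm38.p6. Igf1 lies on chromosome 10 (chr10:87860861-87861110, plus strand), Igfbp3 on chromosome 11 (chr11:7213924-7214173, minus strand) and Igfbp6 on chromosome 15 (chr15:102143936-102144185, plus strand). Capitals mark matches to the SMAD box CAGAC, the AP-1 site TGANTCA or the GC box GGGCGG, each searched on both strands, and no 2 matches overlap.
Igf1: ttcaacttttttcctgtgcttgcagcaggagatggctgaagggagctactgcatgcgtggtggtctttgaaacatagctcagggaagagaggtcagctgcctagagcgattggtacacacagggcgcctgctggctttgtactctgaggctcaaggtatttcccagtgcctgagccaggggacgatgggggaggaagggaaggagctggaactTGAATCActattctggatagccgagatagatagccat
Igfbp3: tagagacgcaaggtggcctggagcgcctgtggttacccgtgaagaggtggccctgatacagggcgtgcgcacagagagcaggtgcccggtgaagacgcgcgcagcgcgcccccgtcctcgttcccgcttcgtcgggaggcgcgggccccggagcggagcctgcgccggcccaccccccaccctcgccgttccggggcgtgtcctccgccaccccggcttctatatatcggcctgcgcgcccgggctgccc
Igfbp6: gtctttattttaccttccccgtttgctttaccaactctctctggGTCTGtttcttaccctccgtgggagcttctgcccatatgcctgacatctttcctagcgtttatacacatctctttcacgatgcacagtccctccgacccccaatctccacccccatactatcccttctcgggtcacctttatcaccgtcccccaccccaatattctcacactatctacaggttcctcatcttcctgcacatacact

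The Igf1 stretch held 1 match to TGANTCA, as TGAATCA with N taken as any base, beginning 37 bases before the start, and no SMAD box. The Igfbp6 stretch held 1 SMAD box match, beginning 206 bases before the start. The Igfbp3 stretch, with 73.2% G and C against 52.8% for Igf1 and 49.6% for Igfbp6, held none of the 3 motifs. Among 32851 RefSeq promoters over the same 250 bases, 42.2% held CAGAC, 6.7% held TGANTCA and 32.7% held GGGCGG. A match is a description of the letters alone. All 8 members had a promoter in the RefSeq table. Among stretches not shown, that of Igf2r held 2 SMAD box and 3 GC box matches. An Igfbp2 stretch held 3 GC box matches, and another held 1 SMAD box and 1 AP-1 match. Those of Igfbp1, Igfbp4 and Igfbp5 held none of the 3 motifs. In gene order, Igfbp1 and Igfbp3 are neighbours on chromosome 11, and Igfbp2 and Igfbp5 are neighbours on chromosome 1.

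**Figure D1:**
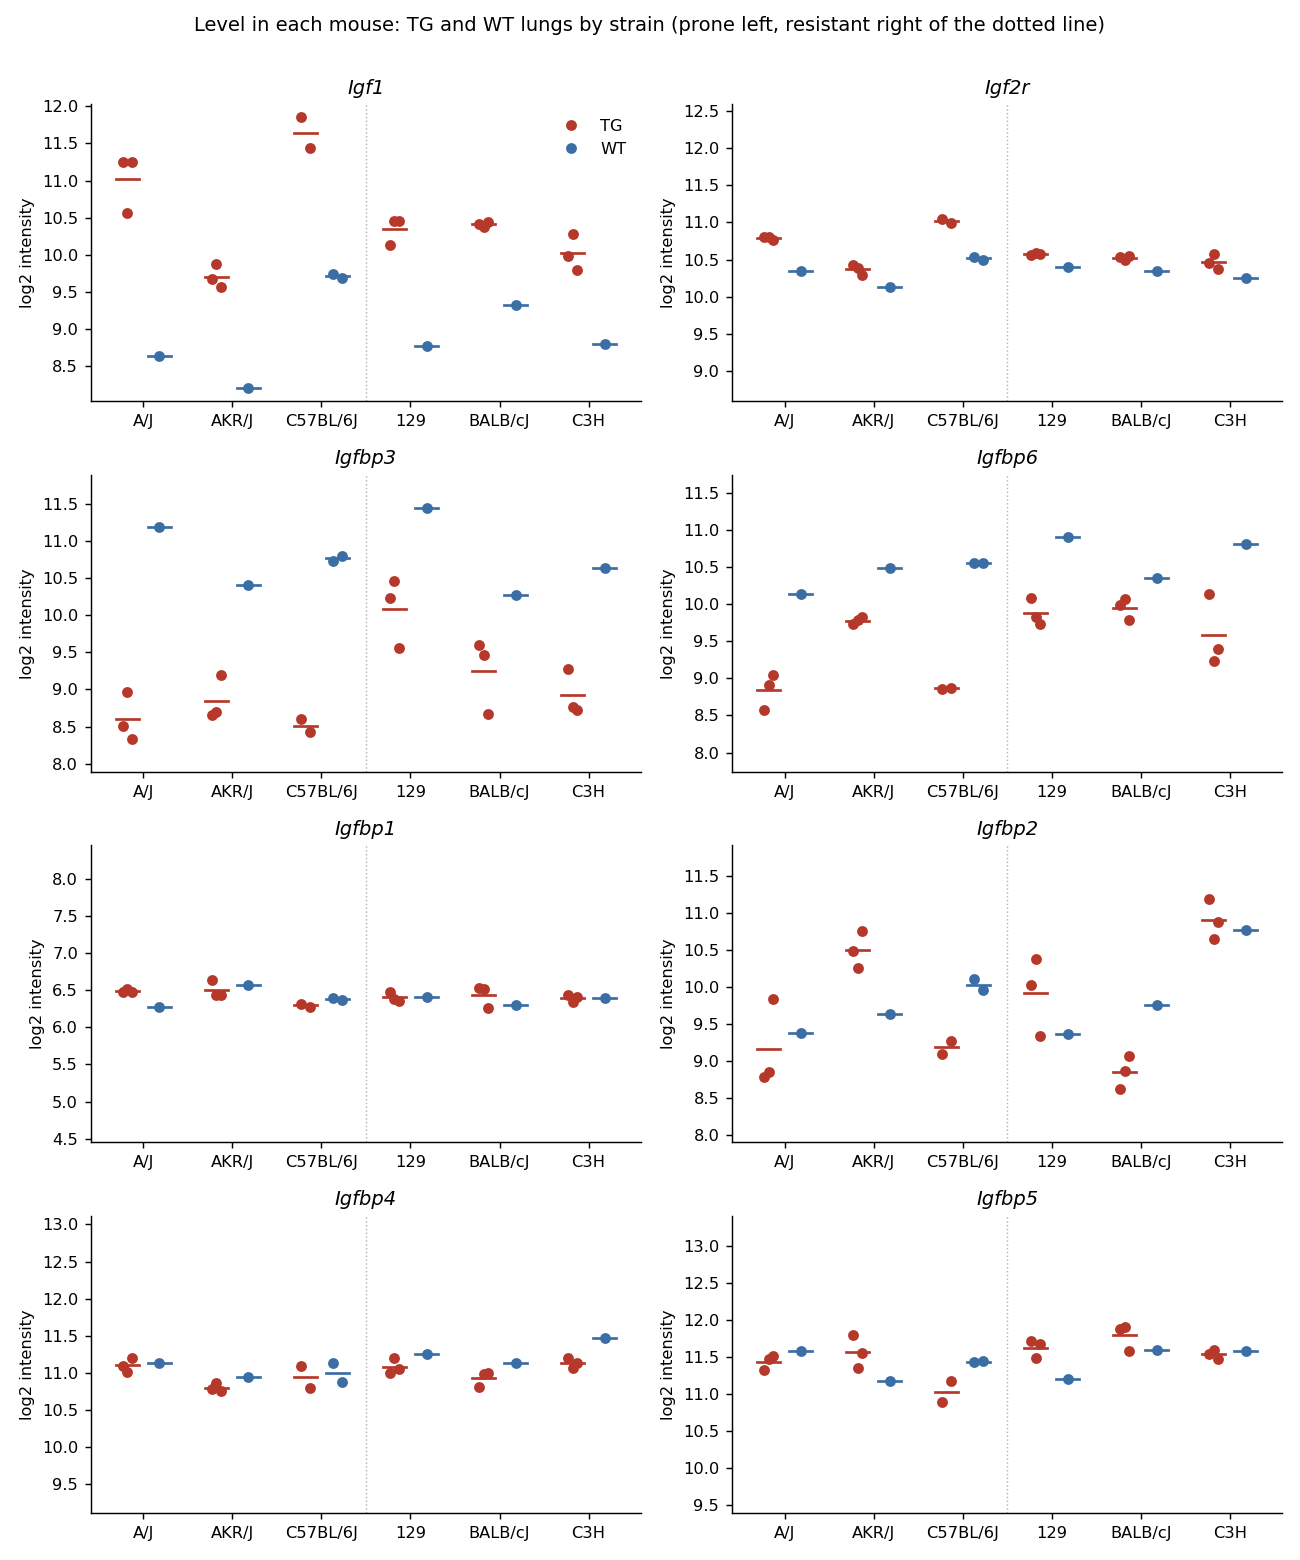
Level of each member in each mouse, as log2 intensity, with TG mice (red) left of WT mice (blue) in each strain; points are mice, short lines are group means, and every panel spans 4 log2 units. Igf1 in TG mice lay between 9.57 and 11.85 and was above the WT mice of the same strain in all 6 strains, while Igfbp3 and Igfbp6 lay below them.

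Igf1, the only ligand gene among the members, was higher in TG lungs of every strain. It read 11.85 and 11.44 in C57BL/6J TG mice, against 9.74 and 9.69 in C57BL/6J WT mice. In A/J it read 11.25, 10.56 and 11.25 in TG mice, against 8.63 in the WT mouse. In AKR/J the values were 9.67, 9.87 and 9.57 in TG mice and 8.20 in the WT mouse. The prone strains thus held both the highest and the lowest Igf1 levels among TG mice. BALB/cJ TG mice had 10.42, 10.37 and 10.44, against 9.33 in the BALB/cJ WT mouse. Strain 129 had 10.13, 10.45 and 10.45 in TG mice and 8.77 in the WT mouse. C3H had 9.99, 10.28 and 9.79 in TG mice and 8.80 in the WT mouse. Every TG mouse was above the WT mice of its own strain, but the groups overlapped across strains, since AKR/J TG mice reached down to 9.57 and C57BL/6J WT mice up to 9.74. Averaged over strains with strain as a term, Igf1 was 1.63 ± 0.12 (SE, n = 17 TG and 7 WT mice) log2 units higher in TG lungs, a 3.1-fold difference, the 2nd highest of 13499 genes. Within strains the difference was 2.39 ± 0.23 in A/J, 1.93 ± 0.20 in C57BL/6J, 1.58 ± 0.23 in 129, 1.51 ± 0.23 in AKR/J, 1.21 ± 0.23 in C3H and 1.08 ± 0.23 in BALB/cJ (SE). Igf1os, a transcript annotated antisense to Igf1 and named here after its values were seen, differed by -0.01 ± 0.06 (SE, limma adjusted p = 0.95), with 5.01 to 5.37 in TG mice and 5 to 5.41 in WT mice. These levels lay under the lower quartile of gene means (6.77), where a change can go unseen.

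Among TG mice the order of Igf1 by strain mean was C57BL/6J (11.65 ± 0.29), A/J (11.02 ± 0.40), BALB/cJ (10.41 ± 0.04), 129 (10.35 ± 0.19), C3H (10.02 ± 0.25) and AKR/J (9.70 ± 0.15) (SD, n = 3, and 2 for C57BL/6J). C57BL/6J did not overlap A/J, and A/J did not overlap BALB/cJ. The neighbours BALB/cJ and 129, 129 and C3H, and C3H and AKR/J did overlap. In WT mice the order differed, with C57BL/6J and BALB/cJ highest and AKR/J lowest.

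Igf2r, which encodes the receptor that clears IGF2, was also higher in TG lungs of every strain, by a smaller margin. C57BL/6J had 11.05 and 10.99 in TG mice, against 10.54 and 10.49 in WT mice. A/J had 10.81, 10.80 and 10.76 in TG mice and 10.34 in the WT mouse. In the other 4 strains TG mice lay between 10.29 and 10.59, and each was above the WT mouse of its strain, at 10.13 in AKR/J, 10.40 in 129, 10.34 in BALB/cJ and 10.25 in C3H. Over all strains the difference was 0.30 ± 0.04 (SE), 1.24-fold, from 0.17 ± 0.08 in 129 to 0.50 ± 0.07 in C57BL/6J.

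Igfbp3, the main carrier of IGF in blood, was lower in TG lungs of every strain. In A/J it read 8.51, 8.96 and 8.34 in TG mice, against 11.19 in the WT mouse. C57BL/6J had 8.60 and 8.43 in TG mice and 10.73 and 10.80 in WT mice. AKR/J had 8.65, 8.70 and 9.20 in TG mice and 10.41 in the WT mouse. The 8 prone TG mice lay within 8.34 to 9.20, a narrow band beside the resistant strains. C3H had 9.28, 8.76 and 8.73 in TG mice, against 10.63 in the WT mouse. BALB/cJ had 9.60, 9.46 and 8.67 in TG mice, against 10.27 in the WT mouse. Strain 129 had 10.23, 10.46 and 9.56 in TG mice, against 11.44 in the WT mouse, and was the highest strain in both genotypes. Only a 129 TG mouse at 10.46 reached above the lowest WT value, 10.27 in BALB/cJ. Over all strains the Igfbp3 difference was -1.77 ± 0.17 (SE), 3.42-fold lower, the 2nd lowest value of 13499 genes. The difference was -2.58 ± 0.36 in A/J, -2.25 ± 0.31 in C57BL/6J, -1.71 ± 0.36 in C3H, -1.56 ± 0.36 in AKR/J, -1.36 ± 0.36 in 129 and -1.02 ± 0.36 in BALB/cJ. Its neighbour on chromosome 11, Igfbp1, a binding protein gene best known from liver, stayed between 6.26 and 6.64 in TG mice and 6.27 and 6.57 in WT mice, and differed by 0.03 ± 0.04. Igfbp1 was among the dim genes, with a mean under the lower quartile of gene means (6.77).

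Igfbp6, whose product prefers IGF2, was lower in TG lungs of every strain as well. C57BL/6J had 8.86 and 8.87 in TG mice, against 10.55 in both WT mice. A/J had 8.58, 8.91 and 9.05 in TG mice, against 10.13 in the WT mouse. C3H had 10.13, 9.23 and 9.40 in TG mice, against 10.81 in the WT mouse. A C3H TG mouse thus stood at the level of the A/J WT mouse, and without it the C3H difference became -1.49. Strain 129 had 10.08, 9.83 and 9.73 in TG mice and 10.90 in the WT mouse. AKR/J had 9.73, 9.78 and 9.82 in TG mice and 10.49 in the WT mouse. BALB/cJ had 9.99, 10.07 and 9.79 in TG mice and 10.35 in the WT mouse. Over all strains the difference was -1.09 ± 0.13 (SE), 2.12-fold lower, the 16th lowest of 13499 genes. By strain it was -1.69 ± 0.21 in C57BL/6J, -1.28 ± 0.24 in A/J, -1.22 ± 0.24 in C3H, -1.02 ± 0.24 in 129, -0.71 ± 0.24 in AKR/J and -0.40 ± 0.24 in BALB/cJ.

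Igfbp2 and Igfbp5, which lie next to each other, differed in sign between strains. Igfbp2 encodes a binding protein with an integrin-binding motif. In AKR/J it read 10.48, 10.26 and 10.75 in TG mice, against 9.64 in the WT mouse, and in BALB/cJ 8.63, 8.87 and 9.07 in TG mice, against 9.76 in the WT mouse. C57BL/6J had 9.10 and 9.27 in TG mice and 10.10 and 9.96 in WT mice. No TG mouse of these 3 strains overlapped its WT mice, with AKR/J above them and the other two below. In 129 (9.34 to 10.38 in TG mice and 9.36 in the WT mouse), A/J (8.79 to 9.84 and 9.38) and C3H (10.64 to 11.18 and 10.77) the WT mouse lay within the TG range. The difference was 0.86 ± 0.37 in AKR/J, 0.55 ± 0.37 in 129, 0.14 ± 0.37 in C3H, -0.22 ± 0.37 in A/J, -0.84 ± 0.32 in C57BL/6J and -0.91 ± 0.37 in BALB/cJ, which left -0.11 ± 0.19 over all strains.

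Igfbp5, a binding protein gene of smooth muscle and fibroblasts, differed by 0.42 ± 0.16 in 129 and 0.39 ± 0.16 in AKR/J and by -0.40 ± 0.14 in C57BL/6J, with values between -0.14 and 0.18 in the other 3 strains. Its C57BL/6J TG mice, at 10.89 and 11.17, were the lowest TG mice of the series, against 11.43 and 11.44 in C57BL/6J WT mice. Over all strains it differed by 0.04 ± 0.09. Igfbp4, whose product restrains IGF until the protease PAPP-A cuts it, lay between 10.76 and 11.20 in TG mice and 10.88 and 11.47 in WT mice. Its difference was -0.15 ± 0.05 over all strains, negative in each strain, and widest in C3H at -0.33 ± 0.12. In C57BL/6J, where it was -0.06 ± 0.11, leaving out 1 mouse moved it between -0.20 and 0.09. Set against the threshold applied to all genes (limma, Benjamini-Hochberg adjusted p under 0.05), 5 of the 8 members lay past it, 2 higher and 3 lower, where 26.7% of all genes did. Since the selection used this contrast, that count is a description.

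**Figure D2:**
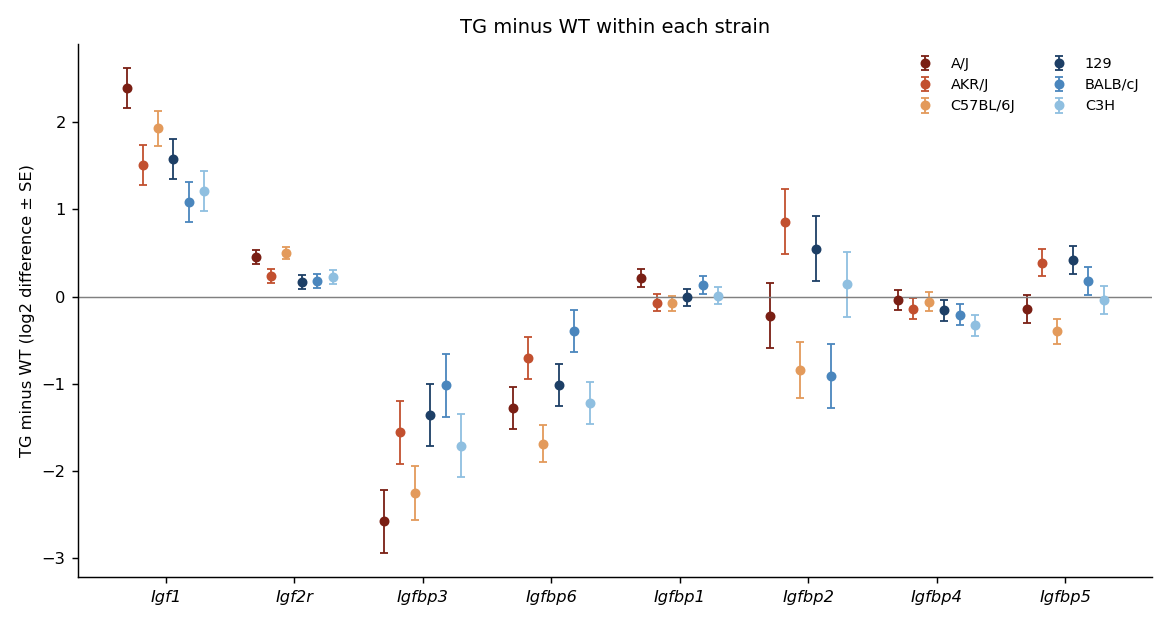
TG minus WT difference of each member within each strain (log2, points), with the standard error as bars, prone strains in red to orange and resistant strains in blue. Igf1 and Igf2r lie above 0 and Igfbp3 and Igfbp6 below it in all 6 strains, whereas Igfbp2 spans -0.91 in BALB/cJ to 0.86 in AKR/J.

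Markers of several cell types moved along with these genes, and in whole-lung RNA fewer cells of a type and less RNA per cell cannot be told apart. Over all genes 26.7% passed the threshold between TG and WT lungs, in either direction. Of 6 measured markers of interstitial macrophages and monocytes, 5 rose in TG lungs and 0 fell. Their mean level lay between 9.01 and 10.51 in TG mice and between 8.66 and 9.41 in WT mice. It was highest in A/J (10.31 to 10.51) and C57BL/6J (10.19 to 10.32) TG mice and lowest in AKR/J TG mice (9.01 to 9.23). The same strains stood at the ends of the Igf1 order among TG mice. Among WT mice C57BL/6J was highest in both, but the lowest macrophage mean was in 129 (8.66) and the lowest Igf1 in AKR/J (8.20). Of 7 alveolar macrophage markers 0 rose and 2 fell, with a median difference of -0.34. Of 8 fibroblast markers 4 rose and 2 fell, with means of 11.38 to 11.60 in TG mice and 11 to 11.40 in WT mice. Fibroblast means did not follow the Igf1 order among TG mice. C57BL/6J, highest in Igf1, had 11.39 to 11.41 and AKR/J, lowest in Igf1, had 11.38 to 11.46, while A/J had 11.53 to 11.60 and 129 had 11.53 to 11.58. Of 8 endothelial markers 7 fell and 0 rose, with means of 11.39 to 12.02 in TG mice and 11.98 to 12.21 in WT mice. The A/J (11.39 to 11.59) and C57BL/6J (11.45 to 11.50) TG mice, low in Igfbp3 and Igfbp6, had the lowest endothelial means. Low Igfbp3 did not go with low endothelial means in every strain. AKR/J TG mice, with Igfbp3 at 8.65 to 9.20, had endothelial means of 11.89 to 12. C3H TG mice, with Igfbp3 at 8.73 to 9.28, had 11.88 to 12.02. Of 6 club cell markers 5 fell, and of 5 smooth muscle and pericyte markers 4 fell, with 0 rising in either list. Of 6 cardiac muscle markers 5 fell and 0 rose, with means of 9.61 to 10.92 in TG mice and 10.79 to 11.22 in WT mice. Here too the A/J (9.61 to 9.82) and C57BL/6J (9.66 to 9.71) TG mice were low, as was 1 BALB/cJ TG mouse at 9.78. Both adipocyte markers fell, with means of 7.42 to 8.22 in TG mice and 7.70 to 9.10 in WT mice. Of 7 alveolar type 2 cell markers 1 rose and 0 fell, and of 6 ciliated cell markers 0 rose and 2 fell. The 5 alveolar type 1 cell markers did not pass. The part of these cell types in the members' differences was not tested. A TG BALB/cJ mouse (replicate 1) stood apart in 5 hepatocyte markers, with a mean of 8.78, whereas the other 23 mice lay between 6.46 and 6.99. Without that mouse the differences over all strains were 1.64 for Igf1, -1.81 for Igfbp3, -1.10 for Igfbp6 and 0.31 for Igf2r.

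The genes most like Igf1 were sought by Pearson's r over the 24 mice after each strain's mean was subtracted. They were Fndc3b (0.986), the collagen genes Col1a1 (0.982) and Col3a1 (0.978), Kdelr3 (0.981), which encodes a receptor that returns proteins to the endoplasmic reticulum, and Nlgn2 (0.976). For Igfbp3 they were Ramp2 (0.955), a subunit of the adrenomedullin receptor and 1 of the endothelial markers, the Hippo pathway kinase gene Stk4 (0.951), the monooxygenase gene Fmo5 (0.948), Faim2 (0.946) and Gmnc (0.943). On the same scale Igf1 and Igfbp3 had r = -0.95, Igf1 and Igf2r 0.94, and Igfbp3 and Igfbp6 0.93. These coefficients include the step between TG and WT mice that selected the members, so they are descriptive. The TG minus WT difference was 1.02 ± 0.08 for Col1a1 and -0.49 ± 0.05 for Ramp2 (SE).

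A separate question is how the members varied among the 17 TG mice alone, where every mouse carried the transgene. In 13 pairs tested, p-values came from 100000 permutations and were adjusted over the pairs. For levels the permutations moved all 17 mice freely across strains, although mice of a strain had similar levels. Those p-values take the mice as independent and can be too small. Only the form within strains keeps to the strains. Igf1 and Igfbp3 had r = -0.33 (p = 0.20, adjusted p = 0.29, permutation test) and rho = -0.35 (p = 0.18). Although Igf1 and Igfbp3 moved in opposite directions between TG and WT lungs, the correlation of their levels among TG mice did not pass the threshold, and it was -0.36 (permutation p = 0.18, adjusted p = 0.40) within strains. Igf1 and Igf2r had r = 0.95 (p = 1e-05, the smallest the permutations can give, adjusted p = 0.00013) and rho = 0.95, and r = 0.91 without the 2 mice farthest from the median of Igf1. Igf1 and Igfbp6 had r = -0.72 (permutation p = 0.0012, adjusted p = 0.0081) and rho = -0.57 (permutation p = 0.02, adjusted p = 0.055), and r = -0.60 without 2 mice. Once each strain's TG mean was subtracted and permutation was kept within strains, Igf1 and Igf2r had r = 0.48 (permutation p = 0.079, adjusted p = 0.40) and Igf1 and Igfbp6 r = -0.29 (p = 0.42, adjusted p = 0.68). Igfbp3 and Igfbp6 had r = 0.66 (permutation p = 0.0038, adjusted p = 0.016) and rho = 0.77 over TG mice, and r = 0.70 without 2 mice. Within strains that pair had r = 0.51 (permutation p = 0.06, adjusted p = 0.40). Igf1 correlated negatively with Igfbp2 (r = -0.62, permutation p = 0.0074, adjusted p = 0.023) and with Igfbp5 (r = -0.62, permutation p = 0.0087, adjusted p = 0.023). The Igfbp5 relation rested on the 2 C57BL/6J mice, since r was -0.19 without them, and the Igfbp2 relation was 0.00 within strains. No pair passed the threshold within strains, where the lowest adjusted permutation p was 0.40.

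**Figure D3:**
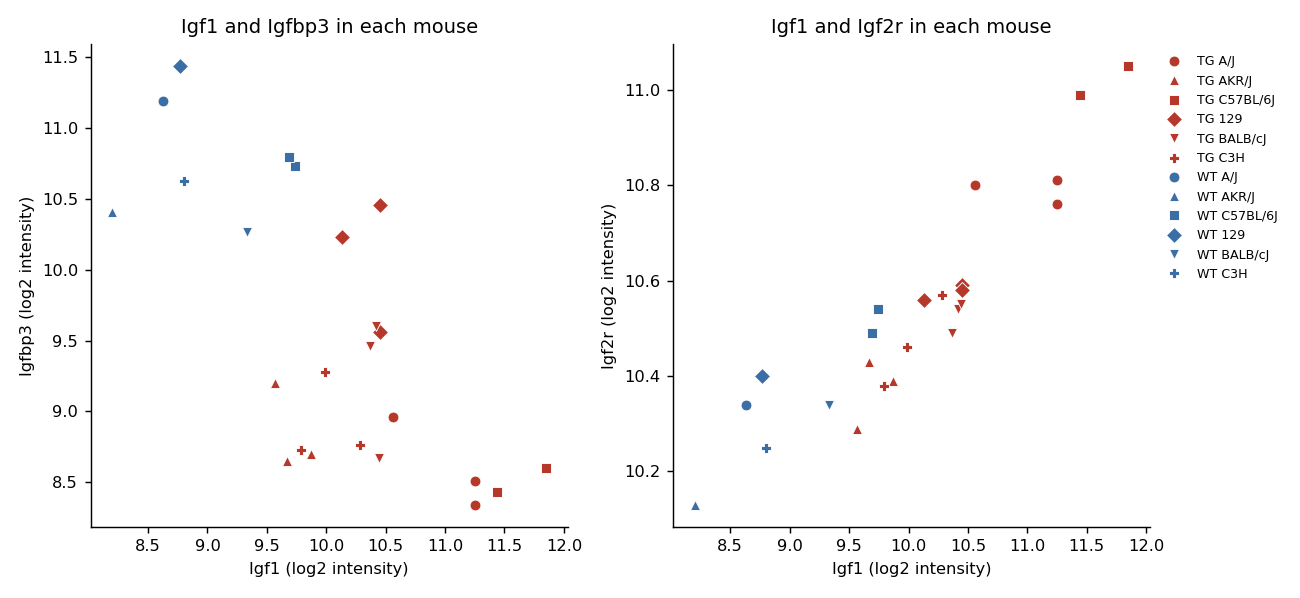
Igf1 level of each mouse (log2 intensity) against its Igfbp3 level (left) and its Igf2r level (right), TG mice in red and WT mice in blue, with a symbol for each strain. Among TG mice Igf2r follows Igf1 along the order of the strains (r = 0.95), while Igfbp3 lies between 8.34 and 10.46 among TG mice (r = -0.33).

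The level of most members differed between strains in TG lungs. Of the 8 members, 7 differed among the 6 TG groups (limma moderated F test), where 31.4% of all genes did. Adjusted p was 1e-05 for Igf1, 1.1e-05 for Igf2r, 8.6e-05 for Igfbp2, 0.00025 for Igfbp6, 0.002 for Igfbp3, 0.0044 for Igfbp5 and 0.038 for Igfbp4. Igfbp1 did not pass (adjusted p = 0.30). The Igfbp4 call was lost without any of 6 TG mice, namely A/J 1, AKR/J 1, 2 or 3, or C3H 1 or 3 (adjusted p of 0.056 to 0.10). The Igfbp5 call was lost without TG C57BL/6J 1 (0.053). Igfbp2 had the widest spread of strain means among TG mice, from 8.86 ± 0.22 in BALB/cJ to 10.90 ± 0.27 in C3H (SD, n = 3 each).

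Whether the TG effect itself depended on the strain was tested on the differences between the strains' TG minus WT values. None of the 8 members passed in limma, where 1.34% of all genes did, although 5 had an unadjusted p under 0.05, as had 14.6% of all genes. Those were Igfbp5 (adjusted p = 0.15), Igf1 (0.17), Igfbp2 (0.19), Igfbp6 (0.21) and Igf2r (0.23). The test had 1 WT mouse in 5 of the strains. It also leaned on single TG mice: Igf1 passed without TG A/J 2 (adjusted p = 0.028), Igfbp6 without TG C3H 1 (0.029) and Igfbp2 without TG A/J 3 (0.048). Igf1 also passed with array weights (0.036).

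**Figure D4:**
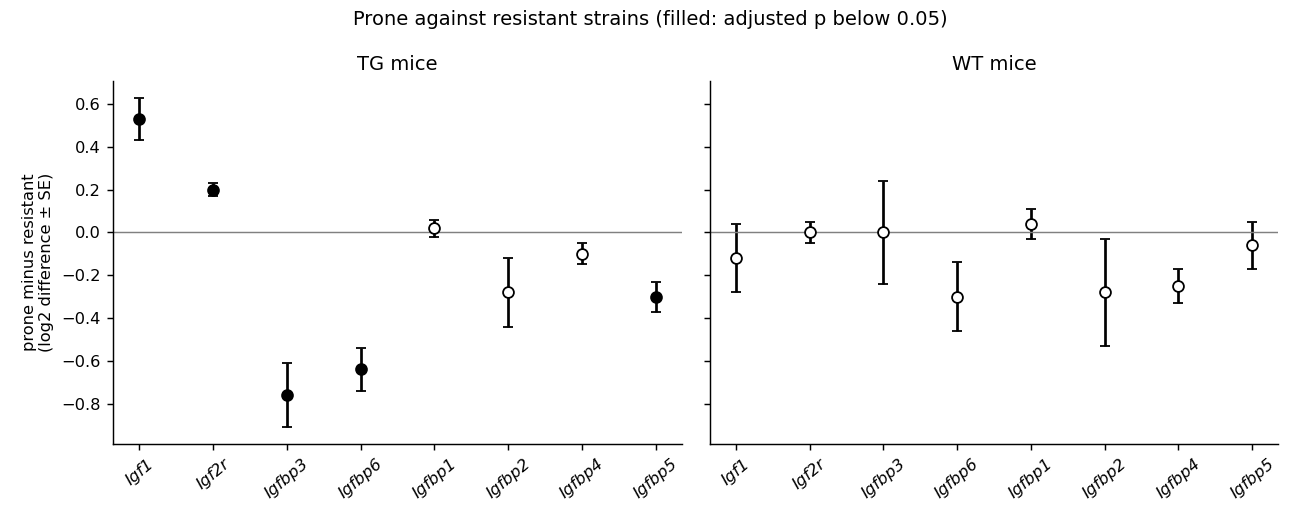
Prone minus resistant difference of each member (log2, points, with the standard error as bars) in TG mice (left) and in WT mice (right); filled points have an adjusted p below 0.05. In TG mice 5 members are filled, from -0.76 for Igfbp3 to 0.53 for Igf1, and in WT mice none is.

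On the mean of the strains, Igf1 and Igf2r were higher and Igfbp3, Igfbp5 and Igfbp6 lower in prone than in resistant TG lungs. Igf1 had 9.57, 10.90 and 11.85 as its lowest, median and highest values in the 8 prone TG mice, and 9.79, 10.37 and 10.45 in the 9 resistant TG mice. The difference was 0.53 ± 0.10 (SE, limma adjusted p = 0.002), and the sets overlapped because AKR/J, a prone strain, lay below the others. Igfbp3 had 8.34, 8.62 and 9.20 in prone TG mice and 8.67, 9.46 and 10.46 in resistant TG mice, a difference of -0.76 ± 0.15 (adjusted p = 0.0034). Here the AKR/J mean (8.85) lay below every resistant mean but beside that of C3H (8.92), with A/J at 8.60 and C57BL/6J at 8.51. AKR/J TG mice (8.65 to 9.20) overlapped C3H TG mice (8.73 to 9.28). Igfbp6 differed by -0.64 ± 0.10 (0.00057), with 8.58, 8.98 and 9.82 in prone and 9.23, 9.83 and 10.13 in resistant TG mice. Igf2r differed by 0.20 ± 0.03 (0.00087), with 10.29, 10.78 and 11.05 in prone and 10.38, 10.55 and 10.59 in resistant TG mice. Igfbp5 differed by -0.30 ± 0.07 (0.0068), with 10.89, 11.41 and 11.79 in prone and 11.47, 11.60 and 11.91 in resistant TG mice. Thus 5 of 8 members passed, where 11.1% of all genes did. Igfbp2 (-0.28 ± 0.16, adjusted p = 0.30), Igfbp4 (-0.10 ± 0.05, 0.26) and Igfbp1 (0.02 ± 0.04, 0.85) did not. AKR/J was apart from the other prone strains beyond Igf1. Its TG mean of Igf2r was 10.37, below C3H at 10.47, the lowest resistant strain. Its Igfbp6 mean (9.78) lay among the resistant means, 9.59 in C3H to 9.95 in BALB/cJ. So did its Igfbp5 mean (11.56, against 11.54 in C3H to 11.79 in BALB/cJ).

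These p-values take mice as the unit and speak of these 6 strains alone. With the 3 prone and 3 resistant strain means as the unit, an exact two-sided permutation test cannot go below 0.1. It gave 0.1 for Igfbp3, the only member whose strain means did not overlap, 0.2 for Igfbp6 and Igfbp5, 0.4 for Igf2r and 0.5 for Igf1. For Igfbp3 the nearest means across the sets were 8.85 in AKR/J and 8.92 in C3H. The prone strains differed among themselves in the marker means as well: A/J and C57BL/6J TG mice had the highest interstitial macrophage and lowest endothelial means, whereas AKR/J TG mice had the lowest interstitial macrophage means and endothelial means of 11.89 to 12. Cardiac muscle means were 9.61 to 9.82 in A/J and 9.66 to 9.71 in C57BL/6J TG mice and 10.49 to 10.66 in AKR/J TG mice. The part of these in the prone and resistant values was not tested.

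The prone and resistant sets were also compared in WT mice and in the size of the TG effect. In WT mice 0 of 8 members passed in limma, where 0.741% of all genes did, and 1 member, Igfbp4 (-0.25 ± 0.08, adjusted p = 0.24), had an unadjusted p under 0.05, as had 10.6% of all genes. WT Igfbp3 lay between 10.41 and 11.19 in 4 prone mice and between 10.27 and 11.44 in 3 resistant mice, a difference of 0.00 ± 0.24. For the difference of TG effects, prone minus resistant, 0 of 8 passed, where 0.474% of all genes did. Unadjusted p was under 0.05 for 3 of them and for 11.5% of all genes. The 3 were Igf1 at 0.65 ± 0.19 (adjusted p = 0.13), Igf2r at 0.21 ± 0.06 (0.16) and Igfbp3 at -0.76 ± 0.29 (0.30). Igf1 passed with array weights (adjusted p = 0.042), without TG A/J 2 (0.73, adjusted p = 0.027) and without WT AKR/J 1 (0.87, adjusted p = 0.029), and Igf2r passed without WT AKR/J 1 (0.29, adjusted p = 0.033).

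An emphysema label was given for 4 strains. The 6 TG mice of AKR/J and BALB/cJ were labelled as emphysematous and the 6 TG mice of 129 and C3H as not. Igfbp2 differed by -0.73 ± 0.18 (SE, limma adjusted p = 0.023) and Igfbp4 by -0.25 ± 0.06 (0.024), both lower in the labelled mice, so 2 of 8 members passed, where 7.15% of all genes did. The labelled strains were far apart in Igfbp2, with 10.26 to 10.75 in AKR/J and 8.63 to 9.07 in BALB/cJ, against 9.34 to 10.38 in 129 and 10.64 to 11.18 in C3H. Igfbp4 lay between 10.76 and 11 in AKR/J and BALB/cJ TG mice and between 11 and 11.20 in 129 and C3H TG mice. Each call was lost without any of 4 TG mice: 129 2, BALB/cJ 1, C3H 1, and AKR/J 2 for Igfbp2 or AKR/J 3 for Igfbp4 (adjusted p of 0.055 to 0.065). The label goes with the strain, so the label and the strains' other differences cannot be told apart.

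The rest of the IGF system was read from lists chosen with earlier results of these data known. Of 41 other measured genes, 11 rose in TG lungs, 8 fell and 22 did not pass, which is 46.3% called, where 26.7% of all genes were, with a median difference of 0.03 log2 units beside -0.001 over all genes. Among the relatives of the binding proteins, Ccn4, a matricellular gene of the WNT pathway, rose by 1.08 ± 0.08 (SE, limma adjusted p = 8.3e-09), with 8.01 to 9.27 in TG mice and 6.96 to 8.16 in WT mice. Ccn2, a matricellular gene that TGF-β induces, rose by 0.66 ± 0.09 (1.4e-05) and Kazald1 by 0.38 ± 0.08 (0.00078). Esm1, a gene of activated endothelial cells, fell by 1.14 ± 0.12 (6.2e-07), with 6.88 to 8.02 in TG mice and 7.57 to 9.37 in WT mice. Igfals, which encodes the acid-labile subunit of the ternary complex, differed by 0.05 ± 0.06 (0.56) and Igfbpl1 by 0.10 ± 0.06 (0.22). In Ccn1 (0.31 ± 0.12, 0.051), Ccn5 (0.17 ± 0.07, 0.095), Ccn3 (-0.04 ± 0.10, 0.80) and Ccn6 (-0.06 ± 0.05, 0.41) the test was not passed, though Ccn1 passed when any of 7 mice was left out. Igfbpl1 and Ccn6 were dim, with means of 6.74 and 6.53, under the lower quartile of gene means (6.77).

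Among genes that govern cutting of the binding proteins, Pappa2, whose protease cuts IGFBP3 and IGFBP5, rose by 0.51 ± 0.11 (limma adjusted p = 0.0011), with 6.74 to 8.06 in TG mice and 6.26 to 6.91 in WT mice. Pappa, whose protease cuts IGFBP4, differed by 0.03 ± 0.07 (0.79). Of the stanniocalcins, which inhibit these proteases, Stc1 fell by 0.37 ± 0.10 (0.0072) and Stc2 rose by 0.21 ± 0.07 (0.034). The Stc2 call was lost without any of 5 mice (WT 129 1, WT AKR/J 1, WT C57BL/6J 2, TG C57BL/6J 1 or TG C57BL/6J 2; adjusted p up to 0.15). Adam28 differed by 0.01 ± 0.12 (0.95) and the orphan receptor gene Insrr by 0.05 ± 0.06 (0.58). Insrr was dim too, with a mean of 6.49. In the growth hormone axis, the signalling brakes Socs3 (1.04 ± 0.11, 3.1e-07) and Socs2 (0.30 ± 0.04, 8.2e-06) and the kinase gene Jak2 (0.29 ± 0.04, 7.5e-06) rose. The growth hormone receptor gene Ghr fell by 0.22 ± 0.05 (0.0019) and Stat5b fell by 0.12 ± 0.04 (0.021), though Stat5b was not called without WT A/J 1 (0.09).

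Downstream of the receptor, the adaptor genes Grb10 (0.49 ± 0.05, limma adjusted p = 5.7e-07) and Shc1 (0.28 ± 0.04, 1.2e-05) rose. The PI3K catalytic subunit gene Pik3ca fell by 0.13 ± 0.03 (0.0011). The other calls of that branch were small. Akt2 rose by 0.09 ± 0.03 (0.028), and Foxo1 (-0.11 ± 0.03, 0.019), Tsc1 (-0.11 ± 0.04, 0.04) and Tsc2 (-0.13 ± 0.05, 0.042) fell. Leaving out 1 mouse ended the call in 3 of 24 cases for Akt2 (WT 129, WT A/J or WT C3H) and for Foxo1 (WT A/J, WT BALB/cJ or WT C3H), in 12 for Tsc1 and in 11 for Tsc2, with adjusted p up to 0.15. Irs1, a receptor substrate gene, did not pass (-0.23 ± 0.08, 0.051) but passed when any of 7 mice was left out. The remaining 9 genes of the signalling lists and Igf2bp1 (-0.05 ± 0.04, 0.43) did not pass.

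**Figure D5:**
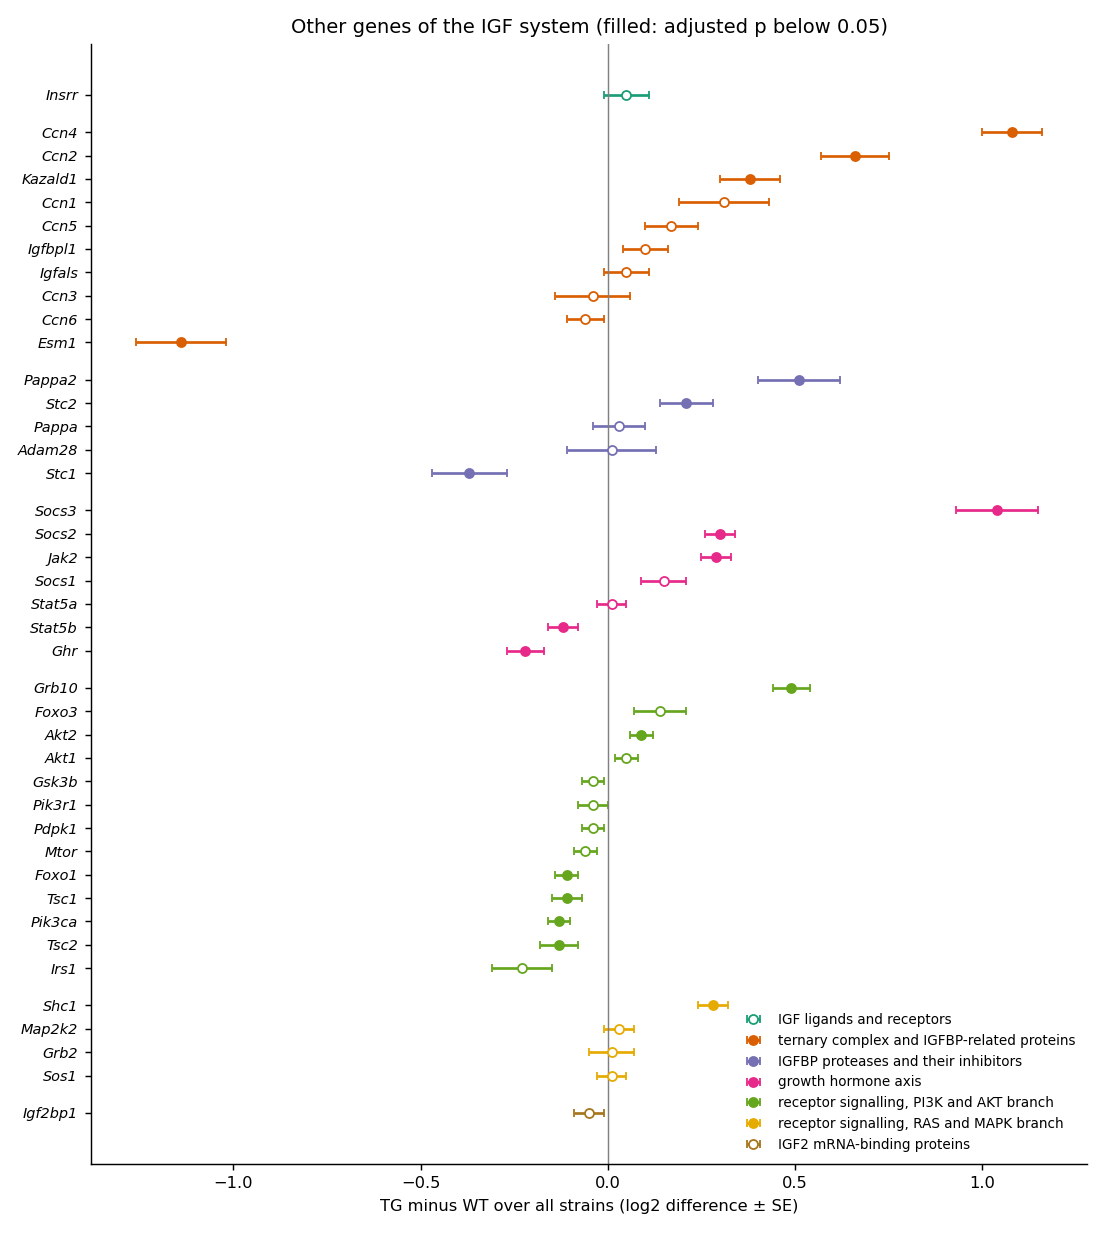
TG minus WT difference over all strains (log2, points, with the standard error as bars) of the 41 other genes of the IGF system, coloured by list; filled points have an adjusted p below 0.05. Ccn4 (1.08), Socs3 (1.04) and Esm1 (-1.14) lie furthest from 0, while most signalling genes lie within 0.3 of it.

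Between the prone and resistant strains, 4 of these 41 genes passed in TG mice, where 11.1% of all genes did. Stc1 (0.44 ± 0.08, limma adjusted p = 0.0019), Ccn4 (0.29 ± 0.08, 0.021) and Kazald1 (0.25 ± 0.07, 0.023) were higher and Ccn3 (-0.36 ± 0.11, 0.042) lower in prone strains. The Ccn3 call was lost without any of 13 mice (adjusted p up to 0.13), the Kazald1 call without TG BALB/cJ 2, C3H 1 or C57BL/6J 1 (up to 0.09), and the Ccn4 call without TG C57BL/6J 1 (0.064). In WT mice Adam28 was higher (0.88 ± 0.14, 0.0046) and Esm1 lower (-0.61 ± 0.12, 0.017) in the prone strains. The Esm1 call in WT mice was lost without WT 129 1 (-0.56, adjusted p = 0.082) and without WT A/J 1 (-0.34, 0.29), and the difference was -1.18 without WT AKR/J 1. By the emphysema label 7 of 41 passed, where 7.15% of all genes did, among them Socs3 (-0.57 ± 0.11, 0.0045) and Ccn3 (-0.62 ± 0.13, 0.0068), lower in labelled mice, and Stc1 (0.45 ± 0.10, 0.0089), higher in them. These 3 calls and that of Akt2 held without any 1 mouse, whereas leaving out 1 mouse ended the call of Kazald1 in 8 cases, of Esm1 in 7 and of Adam28 in 3 (adjusted p up to 0.11).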

How the data were processed

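The series holds 24 arrays of mouse right lung lobe RNA. Per the labels' protocols, RNA came from fresh lung homogenised in a phenol reagent, was column-purified, and was labelled with biotin by the Ambion WT Expression Kit. The values deposited by the authors were taken for log2 probe set intensities because they span 3.41 to 14.75. The log base, summarisation, normalisation and genome build were not given in the sources used here. Array medians lay between 7.759 and 7.835, and no further scaling was applied. Precision is limited by the number of arrays, and 5 of 6 strains had 1 WT mouse.

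Of 25285 probe sets, 1 was incomplete and left out, 14539 had 1 gene symbol in the platform annotation, 781 several and 9964 none here. By Entrez identifier 14480 matched RefSeq, and 0 symbols changed. The table was held in part. A gene with several probe sets (590 genes) took the one of highest mean, which left 13499 genes. Sequence variants between strains can change probe binding, which was not tested.

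Tests used limma 3.58.1 in R 4.3.3 (lmFit and eBayes, two-sided, Benjamini-Hochberg over all genes within each comparison, threshold 0.05). TG and WT mice were compared with strain as a fixed effect (17 residual degrees of freedom). Other comparisons were contrasts of 12 group means (12 residual degrees of freedom), which lends a single WT mouse the spread of the replicated groups. The labels do not say how the mice were bred or paired, so p-values measure the spread between these mice. The numbers were not taken as pairs. In C57BL/6J, the only strain with 2 pairs, same-numbered TG and WT mice deviated together with a correlation of 0.06. With so few mice in a single strain, that value cannot exclude pairing. Python 3.11.15, pandas 2.3.3 and matplotlib 3.10.9 made tables and plots, and the tests were tested on simulated data.

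The 8 members, the pathway lists and the cell type markers were chosen with earlier results of these data known. Named genes are the 8 members, up to 4 called genes each way in each pathway list, the uncalled genes of the ligand, receptor, protease and ternary complex lists, and the 5 genes most like Igf1 and Igfbp3. The alternatives were other scalings, a filter on dim genes, the mean of a gene's probe sets, an intensity trend, array weights, a replicate block, no strain term, each strain and each mouse left out, the fibrosis code of the labels and strain means as the unit.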

Additional observations from a re-analysis of the deposited data

Results flagged for a closer look

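Esm1 differed between the sets of strains in how far TG lungs lay from WT lungs, by a test of that difference itself. It encodes a proteoglycan of activated endothelial cells with an IGF-binding protein domain. The difference of TG effects, prone minus resistant, was 0.69 ± 0.14 (SE, limma adjusted p = 0.039), and the TG effect depended on the strain with an adjusted p of 0.02. Esm1 had means of 7.01 in A/J, 7.25 in C57BL/6J and 7.90 in AKR/J TG mice, against 7.68, 7.63 and 9.37 in the WT mice of A/J, C57BL/6J and AKR/J. In the resistant strains TG means were 7.38 in 129, 7.34 in BALB/cJ and 7.23 in C3H, against 8.95, 8.89 and 8.68 in the WT mice of 129, BALB/cJ and C3H. WT mice of A/J and C57BL/6J were thus lower than the other WT mice, while TG means lay closer together. In AKR/J, a prone strain, TG lungs lay about as far below WT lungs as in the resistant strains. The difference between the sets thus rested on A/J and C57BL/6J. The call on the difference of TG effects was lost when any of 13 of the 24 mice was left out and was widest without WT AKR/J 1, at 1.00. The strain dependence was lost without WT C57BL/6J 1 (0.066) or TG C57BL/6J 1 (0.071). Endothelial marker means lay between 11.39 and 12.02 in TG mice and between 11.98 and 12.21 in WT mice, and their part in Esm1 was not tested.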

How the results depend on the processing

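The TG minus WT differences of Igf1, Igf2r, Igfbp3 and Igfbp6 over all strains kept their sign under every alternative run. As single mice were left out they were 1.49 to 1.74 for Igf1, -1.91 to -1.62 for Igfbp3, -1.22 to -1.04 for Igfbp6 and 0.28 to 0.33 for Igf2r. Under the other alternatives they were 1.44 to 1.74, -1.91 to -1.62, -1.22 to -0.93 and 0.24 to 0.34 for the same genes, with 0.24 for Igf2r with no strain term. The members were selected on this contrast. Leaving out dim genes, an intensity trend, or the mean of probe sets, where each member has 1, cannot change these differences. With the fibrosis code of the labels the prone minus resistant values turn by construction, to -0.53 for Igf1, 0.76 for Igfbp3, 0.30 for Igfbp5, 0.64 for Igfbp6 and -0.20 for Igf2r. With strain means as the unit the values were 0.53 (exact permutation p = 0.5), -0.76 (0.1), -0.30 (0.2), -0.64 (0.2) and 0.20 (0.4) for the same genes, and 3 strains against 3 cannot pass. Igfbp4 strain differences lost their call under quantile normalization (adjusted p = 0.055). As single mice were left out the adjusted p of strain differences was 0.019 to 0.1 for Igfbp4 and 0.0018 to 0.053 for Igfbp5. Array weights gave 586 genes with strain dependence (181 without weights), 289 (64) for the difference of TG effects, 1461 (965) for the emphysema label and 193 (100) for prone against resistant WT mice, and the cause was not tested. With the replicate number as a replicate block, 14 genes (64) had a difference of TG effects and 98 (181) had strain dependence. Among the 8 members the Igfbp4 strain differences lost their call in that fit (adjusted p = 0.059), and no other call among those tested with it changed. Its use for strain differences and strain dependence was chosen after seeing the data. That fit also ended the TG against WT calls of Stc2, Stat5b, Akt2, Foxo1, Tsc1 and Tsc2, the prone against resistant call of Ccn3 in TG mice, the Esm1 strain dependence and difference of TG effects and the emphysema calls of Kazald1 and Esm1; the mice share only a number. With no strain term 2242 genes (3601) differed between TG and WT, and Kazald1, Stc1, Stat5b, Akt2, Foxo1, Tsc1 and Tsc2 lost that call. Akt2 lost it also under quantile normalization and array weights, and Tsc1 under array weights, whereas Irs1 gained it under quantile normalization and without dim genes. Leaving out single mice gave 66 to 350 genes with strain dependence, 965 to 1628 (1503) for prone against resistant TG mice, 6 to 425 for the difference of TG effects and 46 to 254 for prone against resistant WT mice. The fewest came without TG C57BL/6J 1 for the first 2 counts and without WT 129 1 for the other 2, and both WT-dependent counts were highest without WT AKR/J 1. Single WT mice limit what can be said of the TG effect within a strain.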
